A study of Homo sapiens with 6 samples.

Results

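The sarcoplasmic reticulum calcium handling genes examined here were RYR2, RYR1, ATP2A2, PLN, SLN, SLC8A1, CASQ2, TRDN, JPH2 and HRC. They were taken by gene symbol and not by a cut on any measured value, but with earlier results of these data known. All 10 were found among the 21134 genes of the deposited table. RNA sequencing was performed on 6 libraries of cardiomyocytes differentiated in culture from human pluripotent stem cells (hiPSC-CMs). The labels name the cell line H9, which is the name of an established human embryonic stem cell line, so every group came from 1 line. The 2 control libraries had no treatment, and the 2 alcohol libraries came from cells exposed to 100 mM alcohol for 24 h. The 2 co-treated libraries came from cells given 100 mM alcohol together with 1 µM losartan for 24 h. Losartan blocks the angiotensin II type 1 receptor. Losartan without alcohol was not analysed here, so a change caused by losartan alone cannot be told apart from one caused by its action on alcohol-exposed cells. Whether replicates were separate differentiations or cultures was not given in the labels, and p-values therefore measure the spread between these libraries, which may be technical.

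In a heart muscle cell, calcium entering through the surface membrane opens ryanodine receptors in the sarcoplasmic reticulum, and the calcium released there starts contraction. The cell relaxes when the SERCA2 pump, encoded by ATP2A2, returns calcium to the reticulum and when the sodium-calcium exchanger, encoded by SLC8A1, moves calcium out of the cell. Phospholamban (PLN) and sarcolipin (SLN) are small membrane peptides that restrain the pump. Calsequestrin 2 (CASQ2) and the histidine-rich calcium binding protein (HRC) hold calcium inside the reticulum, triadin (TRDN) links calsequestrin to the release channel, and junctophilin 2 (JPH2) holds the reticulum close to the surface membrane. Alcohol is known to disturb calcium cycling in heart muscle, and the comparison asks whether the transcripts of this machinery differed with alcohol and whether losartan altered the difference.

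The libraries held between 4898287 and 5051448 expected counts, so that 3 counts corresponded to 0.594 to 0.612 CPM, the count scaled to library size. Replicates differed by more than sampling noise, with a chi-square per degree of freedom of 4.54 for the control pair, 7.31 for the alcohol pair and 4.46 for the co-treated pair. All 12 cardiomyocyte markers, among them TNNT2, MYH7 and NKX2-5, exceeded 1 FPKM in every library, and their summed level was 13299 and 14993 FPKM for control, 11391 and 14679 FPKM for alcohol and 12070 and 12372 FPKM for co-treated libraries. Of 10 skeletal muscle markers, MYOD1, MYF5 and PAX7 were not listed, 4 stayed under 1 FPKM in every library and the summed level of 279 to 339 FPKM was mostly CKM, which heart muscle also uses. Smooth muscle markers, of which 5 of 5 exceeded 1 FPKM in every library, summed to 1751 and 1985 FPKM in control, 789 and 1507 FPKM in alcohol and 1049 and 1095 FPKM in co-treated libraries. Atrial markers, of which 5 of 6 exceeded 1 FPKM in every library, summed to 23877 and 26497 FPKM in control, 15892 and 21346 FPKM in alcohol and 17413 and 19902 FPKM in co-treated libraries. Both sums were thus lower in every exposed library than in either control library, but not every marker was. Of the atrial markers, MYL7 and NPPA were lower in every exposed library, while MYL4, KCNA5, NR2F1 and NR2F2 overlapped control. MYL7 was at 14512 and 16180 FPKM in control and 9321 to 12612 FPKM in exposed libraries. Of the smooth muscle markers, CNN1 and MYOCD overlapped control. ACTA2 and TAGLN, the main part of the smooth muscle sum, are also made by immature cardiomyocytes. The part of these shifts in the values below was not tested.

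The coding sequences of the SERCA regulators are shown because PLN and SLN act on the same pump with very different transcript levels. They are given on GRCh38, 5′ to 3′, with the start and stop codons in capitals. PLN encodes 52 codons before the stop at chr6:118558922-118559080 (+), and SLN encodes 31 codons before the stop at chr11:107707835-107707930 (-).
PLN: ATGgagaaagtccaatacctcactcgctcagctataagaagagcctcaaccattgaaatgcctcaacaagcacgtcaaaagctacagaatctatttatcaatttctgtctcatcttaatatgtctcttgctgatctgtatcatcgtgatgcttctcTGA
SLN: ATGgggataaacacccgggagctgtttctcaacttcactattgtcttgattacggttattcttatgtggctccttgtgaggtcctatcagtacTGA

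The 10 genes spanned more than 4 orders of magnitude in untreated hiPSC-CMs on the length-scaled FPKM measure (fragments per kilobase of transcript, scaled to library size). In control libraries PLN ranked 23 of 21134 genes by mean level, ATP2A2 ranked 160 and SLC8A1 ranked 234. TRDN, HRC, RYR2 and JPH2 followed at ranks 540, 645, 1051 and 1100. CASQ2 stood at rank 7000 and SLN at rank 9901, and RYR1, the skeletal muscle ryanodine receptor, was close to the bottom at rank 18155. The order of the means was the same in all 3 groups. Neighbours in this order whose libraries overlapped were RYR2 and JPH2 in control, TRDN and HRC in both exposed groups, and CASQ2 and SLN in co-treated libraries, and these pairs could not be ordered beyond their spread.

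**Figure D1:**
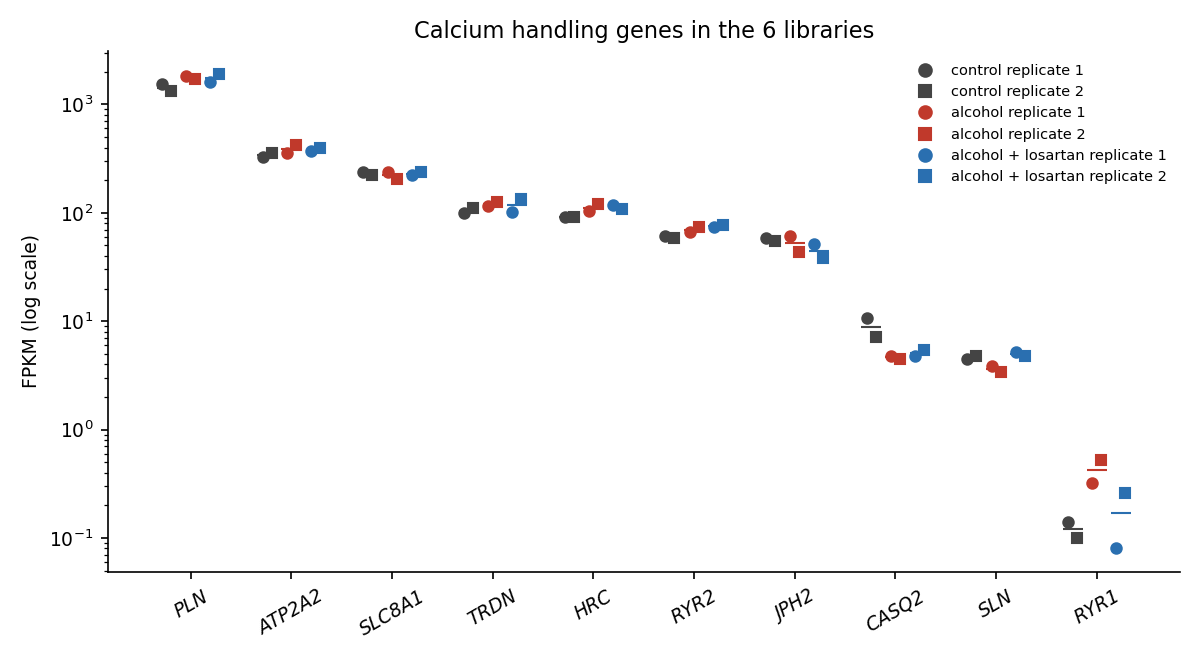
FPKM (log axis) of the 10 genes in each of the 6 libraries, ordered by control mean, with circles for replicate 1, squares for replicate 2 and short lines for group means. PLN lies between 1322 and 1889 FPKM in every library, CASQ2 is at 7.15 and 10.7 FPKM in control against 4.50 to 5.48 FPKM in the exposed libraries, and RYR1 stays at or under 0.52 FPKM.

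RYR2, the cardiac ryanodine receptor through which the reticulum releases calcium, stood at 61.5 and 58.1 FPKM in the control libraries, at 66.5 and 73.3 FPKM with alcohol and at 73.4 and 77.3 FPKM with alcohol plus losartan. All 4 exposed libraries lay above both control libraries. The fitted log2 fold change was 0.18 ± 0.12 (SE, n = 2 per group, edgeR adjusted p = 0.643) for alcohol against control and 0.29 ± 0.12 (edgeR adjusted p = 0.350) for co-treated against control, so neither difference passed the test. Between co-treated and alcohol libraries the log2 fold change was 0.10, with a 95% interval of -0.16 to 0.37.

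RYR1 carried 11 and 8 counts in control, 25 and 40 counts in alcohol and 6 and 20 counts in co-treated libraries. The alcohol libraries were the highest for this gene, and the co-treated libraries were on either side of the control libraries. The log2 fold change was 1.74 ± 0.54 for alcohol against control (95% interval 0.58 to 2.89, edgeR unadjusted p = 0.0063, adjusted p = 0.244) and -1.32 ± 0.51 for co-treated against alcohol (edgeR adjusted p = 0.857), and neither passed the adjusted threshold. The co-treated against alcohol value was -2.41 without the second co-treated library and -0.70 without the first, and that for alcohol against control ran from 1.38 without the second alcohol library to 2.03 without the first. The level of RYR1 remained small beside that of RYR2 in every library, with an FPKM ratio of 0.0023 and 0.0017 in control, 0.0048 and 0.0071 in alcohol and 0.0011 and 0.0034 in co-treated libraries. Of the 7 listed skeletal muscle markers, TNNT3, the fast skeletal troponin T, was higher in every exposed library than in either control library, at 1.33 and 1.52 FPKM in control, 3.18 and 3.25 FPKM in alcohol and 3.74 and 3.81 FPKM in co-treated libraries, or 8 to 23 counts in a library. Its log2 fold change was 1.13 ± 0.46 for alcohol against control (edgeR adjusted p = 0.390) and 1.25 ± 0.41 for all exposed libraries (edgeR adjusted p = 0.185). CKM was at 277 to 334 FPKM and MYOG at 0.52 to 1.14 FPKM, while MYF6, MYH1, MYH2 and CACNA1S stayed at or under 0.38 FPKM. The part of these markers in the RYR1 values was not tested.

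ATP2A2 was measured at 324 and 359 FPKM in control, 358 and 425 FPKM in alcohol and 371 and 393 FPKM in co-treated libraries. On the FPKM scale the first alcohol library lay inside the control range, and the alcohol libraries overlapped both other groups. Both co-treated libraries were above both control libraries on this scale, but they overlapped control on the TMM-scaled CPM. The log2 fold change for alcohol against control was 0.15 ± 0.13 (edgeR adjusted p = 0.727), with a 95% interval from -0.13 to 0.44, equal to a change between -8.57% and 35.5%. For co-treated against alcohol it was -0.05 ± 0.13 (edgeR adjusted p = 0.977).

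PLN reached 1529 and 1322 FPKM in control, 1810 and 1698 FPKM in alcohol and 1605 and 1889 FPKM in co-treated libraries. Every exposed library was above both control libraries on the FPKM scale, although on the TMM-scaled CPM the co-treated libraries overlapped control. The fitted change was 0.26 ± 0.15 on the log2 scale with alcohol (edgeR adjusted p = 0.554) and 0.25 ± 0.15 with alcohol plus losartan (edgeR adjusted p = 0.525). PLN lies within the span of CEP85L, which held 32 to 55 counts in a library, and strand was not stated for the counting, so reads of the pair cannot be told apart where they overlap.

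SLN, the regulator that predominates in atrial and some skeletal muscle, was seen with 16 and 17 counts for control, 14 and 12 for alcohol and 18 and 17 for co-treated libraries. The alcohol libraries were the lowest, by a few counts. The log2 fold change of -0.36 for alcohol against control had a 95% interval of -1.33 to 0.61 (edgeR adjusted p = 0.830), and a difference of this size was not detectable at this depth. For co-treated against alcohol the log2 fold change was 0.42, with a 95% interval of -0.54 to 1.38.

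SLC8A1, the exchanger that extrudes calcium across the surface membrane, was at 239 and 223 FPKM in control, 237 and 205 FPKM in alcohol and 221 and 238 FPKM in co-treated libraries. The groups overlapped in every comparison. The fitted log2 fold change was -0.10 ± 0.14 for alcohol against control (edgeR adjusted p = 0.853) and -0.05 ± 0.14 for co-treated against control (edgeR adjusted p = 0.912). The antisense gene SLC8A1-AS1 had 0 to 3 counts in a library.

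CASQ2, the calcium buffer of the cardiac reticulum, had 147 and 98 counts in control, 66 and 60 in alcohol and 63 and 75 in co-treated libraries, or 10.7 and 7.15, 4.80 and 4.50, and 4.73 and 5.48 FPKM. Both control libraries were above all 4 exposed libraries, and the alcohol and co-treated libraries overlapped. The log2 fold change was -0.98 ± 0.24 for alcohol against control (95% interval -1.49 to -0.47, edgeR unadjusted p = 0.0012, adjusted p = 0.147) and -0.85 ± 0.24 for co-treated against control (edgeR adjusted p = 0.136). Taking the mean of both exposed groups against control gave -0.92 ± 0.20 (edgeR unadjusted p = 4.9e-04, adjusted p = 0.0575), a fitted change of -47.0%, which did not pass the threshold. Without the second control library the adjusted p of this contrast was 0.0404 and without the first alcohol library 0.0364 (edgeR), while without the first control library the log2 fold change was -0.57 and the adjusted p 0.517. The side of the threshold on which CASQ2 fell thus depended on single libraries. Co-treated against alcohol gave a log2 fold change of 0.13 with a 95% interval of -0.41 to 0.67 (edgeR adjusted p = 0.971). Fewer cells making CASQ2 and less CASQ2 RNA per cell cannot be told apart in bulk libraries, and this holds for every gene described here.

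TRDN, which anchors calsequestrin beside the release channel, stood at 98.8 and 111 FPKM in control, 115 and 126 FPKM in alcohol and 102 and 133 FPKM in co-treated libraries. The alcohol libraries were above control. Of the co-treated libraries, the first lay inside the control range on the FPKM scale and the second lay above it. The log2 fold change with alcohol was 0.14 ± 0.14 (edgeR adjusted p = 0.784) and that with alcohol plus losartan was 0.11 ± 0.14 (edgeR adjusted p = 0.809). The isoform-weighted TRDN length used for FPKM varied between 3630 and 3750 bases among libraries.

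JPH2 was at 58.5 and 55.1 FPKM in control, 61.6 and 43.7 FPKM in alcohol and 51.1 and 38.0 FPKM in co-treated libraries. Both co-treated libraries were below both control libraries, while the alcohol libraries lay on either side of control. Its log2 fold change was -0.40 ± 0.17 for co-treated against control (edgeR unadjusted p = 0.0396, adjusted p = 0.363), -0.13 ± 0.17 for alcohol against control (edgeR adjusted p = 0.838) and -0.26 ± 0.17 for co-treated against alcohol (edgeR adjusted p = 0.919). Without the second alcohol library the alcohol value was 0.12, the opposite sign.

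HRC was nearly level between the control libraries, at 91.7 and 91.9 FPKM, with 103 and 120 FPKM in alcohol and 117 and 109 FPKM in co-treated libraries. All 4 exposed libraries exceeded both control libraries. In the fit, the log2 fold change was 0.24 ± 0.11 for alcohol against control (edgeR adjusted p = 0.456), 0.26 ± 0.11 for co-treated against control (edgeR adjusted p = 0.377) and 0.25 ± 0.10 for all exposed libraries against control (edgeR unadjusted p = 0.0267, adjusted p = 0.292). Between co-treated and alcohol libraries it was 0.01, with a 95% interval from -0.23 to 0.26.

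All 10 genes passed the expression filter and were tested among 14926 genes, and 0 of 10 passed an edgeR adjusted p of 0.05 in each of the 4 contrasts. DESeq2 and limma also called 0 of 10. Among all genes tested the edgeR test called 0.067% for alcohol against control, 0.0134% for co-treated against alcohol, 0.362% for co-treated against control and 0.556% for all exposed libraries against control. At an unadjusted edgeR p under 0.05, 2 of 10 genes differed with alcohol (RYR1 higher and CASQ2 lower, against 11.0% of all genes), 1 differed between co-treated and alcohol libraries (RYR1 lower, against 5.55%), 4 differed between co-treated and control libraries (RYR2 and HRC higher, CASQ2 and JPH2 lower, against 12.6%), and 3 differed between all exposed and control libraries (RYR2 and HRC higher, CASQ2 lower, against 13.5%). The contrasts against control share the same control libraries and are not separate evidence.

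**Figure D2:**
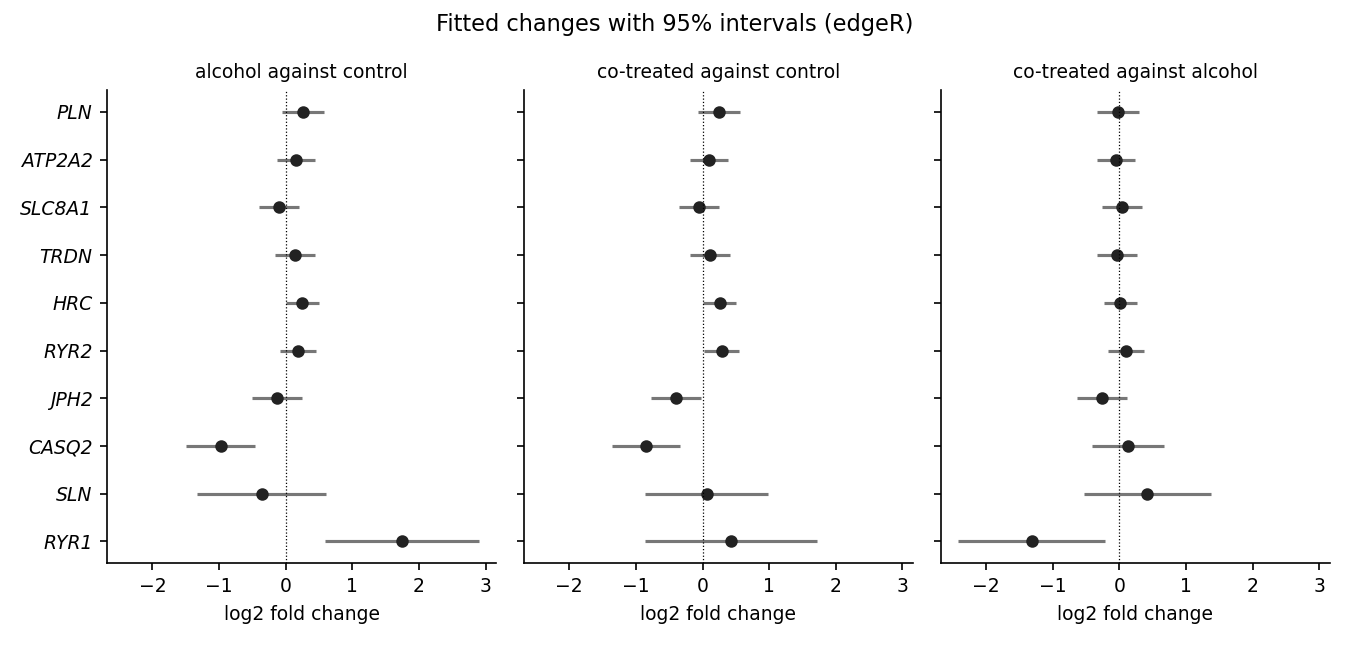
Fitted log2 fold change (points) and its 95% interval (lines) from edgeR for each gene in the 3 pairwise comparisons, with 0 dotted. The intervals of CASQ2 lie below 0 in both comparisons with control. That of RYR1 lies above 0 for alcohol against control and below 0 for co-treated against alcohol. For co-treated against control those of RYR2 and HRC lie above 0 and that of JPH2 below 0. None of the 10 genes passed the adjusted threshold.

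The median log2 fold change of the 10 genes was 0.15 for alcohol against control, -0.00063 for co-treated against alcohol, 0.10 for co-treated against control and 0.12 for all exposed libraries against control. The corresponding medians over all 14926 genes were -0.0033, 0.0023, -0.0017 and -0.0066. Taken library by library, the 10 genes had a median deviation from the control mean of 0.058 and -0.058 (control), 0.11 and 0.18 (alcohol) and -0.026 and 0.19 (co-treated). The first co-treated library thus lay between the control libraries, and the pooled within-group SD of this median was 0.10.

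FPKM of alcohol and control libraries did not overlap for 7 of the 10 genes. RYR2, RYR1, PLN, TRDN and HRC were higher with alcohol, a count of 5 beside 24.7% of all genes tested, and SLN and CASQ2 were lower, a count of 2 beside 17.7%. Co-treated and alcohol libraries did not overlap for RYR2 and SLN, which were higher (18.0% of all genes), and for RYR1, which was lower (14.3%). Co-treated and control libraries did not overlap for RYR2, ATP2A2, PLN, SLN and HRC, which were higher (27.1%), and for CASQ2 and JPH2, which were lower (16.3%). After TMM scaling, ATP2A2, PLN and SLN overlapped in this last comparison, which left 2 genes higher and 2 lower beside 21.6% and 21.7% of all genes. RYR2, PLN and HRC were higher (14.8%) and CASQ2 was lower (8.39%) in all 4 exposed libraries than in both control libraries, and after TMM scaling PLN overlapped, which left 2 higher and 1 lower beside 11.8% and 11.3%.

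**Figure D3:**
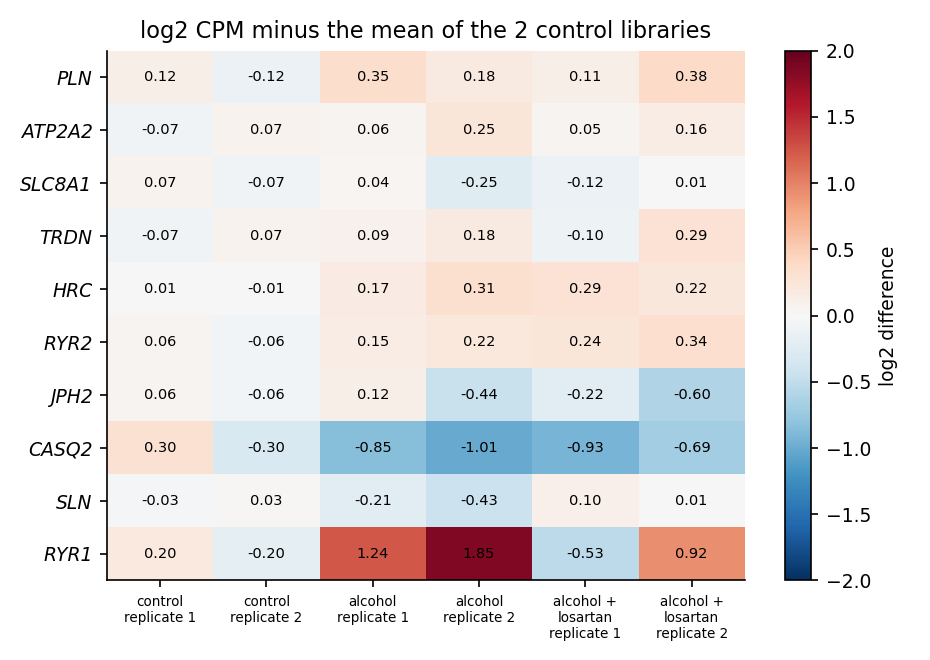
Difference in TMM-scaled log2 CPM between each library and the mean of the 2 control libraries, by gene (rows) and library (columns), with the value printed in each cell and red for higher and blue for lower. CASQ2 is lower in all 4 exposed libraries (-0.69 to -1.01), RYR1 is 1.24 and 1.85 in alcohol but -0.53 and 0.92 in co-treated libraries, and HRC and RYR2 are positive in all 4.

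By the criterion of a change of more than 1 on the log2 scale of mean FPKM, without a test, 1 of the 10 genes passed for alcohol against control (17.3% of genes with any FPKM in the libraries compared) and 1 for co-treated against alcohol (16.4%). It was RYR1 in both. RYR1 also passed for all exposed libraries against control (16.8%), and no member passed for co-treated against control (17.3%).

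The balance between the pump and its regulators was compared as ratios of FPKM within a library. PLN exceeded ATP2A2 by 4.72 and 3.69 times in control, 5.05 and 4.00 times in alcohol and 4.33 and 4.81 times in co-treated libraries, with group means of 4.20 ± 0.73, 4.53 ± 0.75 and 4.57 ± 0.34 (SD, n = 2). The groups overlapped, and the exact permutation p of every pairwise comparison was 0.667 or 1. The 2 lowest ratios, in the second control and second alcohol library, were found in the libraries with the lowest summed ventricular markers. The sums there were 4867 and 4562 FPKM against 6724 to 7578 FPKM in the other 4, an overlap seen after the values were known. The list did not move together. MYL2 and MYH7 were lowest in these 2 libraries, but IRX4 was highest, at 40.9 and 46.5 FPKM against 22.4 to 34.6 FPKM. MYL3 was highest in the second control and lowest in the second alcohol library, where HEY2 was highest. SLN to ATP2A2 averaged 0.0135 ± 0.00037 for control, 0.0095 ± 0.0020 for alcohol and 0.0130 ± 0.0013 for co-treated libraries (SD, n = 2). For this ratio and for RYR1 to RYR2 the alcohol libraries did not overlap either other group, with an exact two-sided permutation p of 0.333, the smallest that 2 against 2 libraries allow. Over the 9 comparisons of 3 ratios the Benjamini-Hochberg adjusted permutation p ran from 0.75 to 1.

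**Figure D4:**
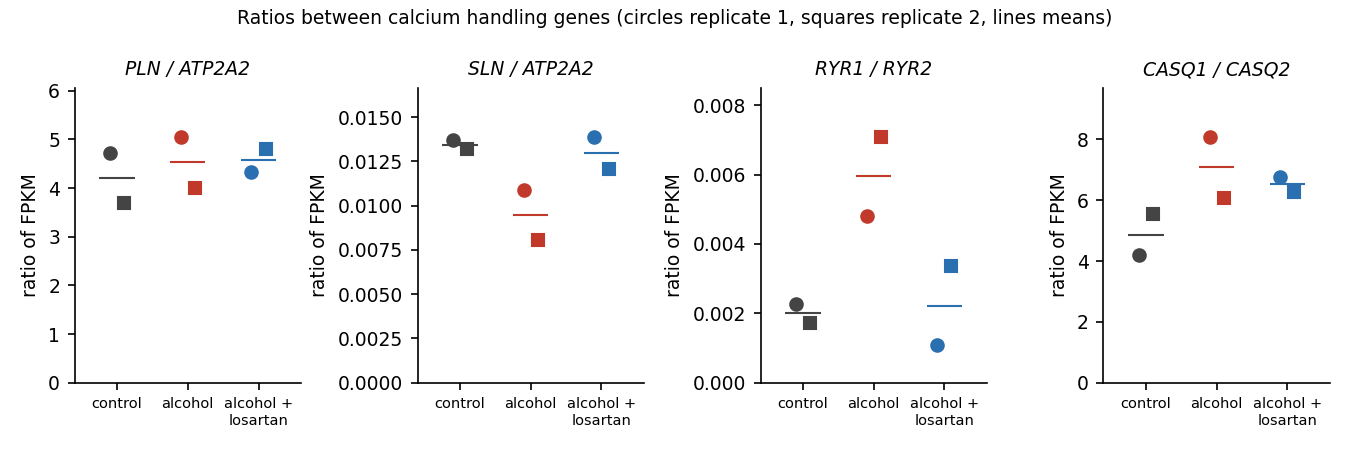
Ratio of FPKM within each library for PLN to ATP2A2, SLN to ATP2A2, RYR1 to RYR2 and CASQ1 to CASQ2, with circles for replicate 1, squares for replicate 2 and lines for group means. The PLN to ATP2A2 ratio overlaps among groups, the SLN to ATP2A2 ratio is lowest and the RYR1 to RYR2 ratio highest in the alcohol libraries, and CASQ1 exceeds CASQ2 by 4.19 to 8.09 times.

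CASQ1, the calsequestrin of fast skeletal muscle, was the more abundant calsequestrin transcript, at 44.8 and 39.7 FPKM in control, 38.8 and 27.4 FPKM in alcohol and 32.0 and 34.4 FPKM in co-treated libraries. It was singled out after its values were seen. CASQ1 was lower in each exposed library than in either control library, with a log2 fold change of -0.39 ± 0.15 for all exposed libraries against control (edgeR unadjusted p = 0.0191, adjusted p = 0.260). CASQ1 exceeded CASQ2 by 4.87 ± 0.96 times in control, 7.09 ± 1.42 times in alcohol and 6.53 ± 0.35 times in co-treated libraries (SD, n = 2).

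Among 45 other genes of calcium handling, 44 were listed and 36 passed the expression filter. PPP1R1A was called in all 3 contrasts against control, which made 1 of 36 in each. None was called lower by edgeR in these contrasts, and limma on log2 FPKM called 0 of the 36 with either pseudocount. For co-treated against alcohol edgeR called 0 of 36, and 1 had an unadjusted edgeR p under 0.05, beside 5.55% of all genes tested. The medians of the 36 log2 fold changes were 0.11 for alcohol against control, -4.0e-05 for co-treated against alcohol, 0.073 for co-treated against control and 0.081 for all exposed libraries against control.

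PPP1R1A encodes inhibitor 1 of protein phosphatase 1, the phosphatase that removes phosphate from phospholamban. It stood at 48.2 and 51.0 FPKM in control, 82.8 and 115 FPKM in alcohol and 84.7 and 91.7 FPKM in co-treated libraries, and every exposed library was above both control libraries. PPP1R1A rose with a log2 fold change of 0.95 ± 0.14 for alcohol against control (edgeR adjusted p = 0.0309), 0.79 ± 0.14 for co-treated against control (edgeR adjusted p = 0.0346) and 0.87 ± 0.13 for all exposed libraries (edgeR adjusted p = 0.0127). Co-treated against alcohol gave -0.17 ± 0.14 (edgeR adjusted p = 0.937). With single libraries left out the log2 fold change for alcohol against control ran from 0.74 to 1.15, and the call was lost without the second control library (edgeR adjusted p = 0.0831), the second alcohol library (0.227) or either co-treated library (0.123 and 0.113). For all exposed libraries it was lost without the second control library (edgeR adjusted p = 0.0521) or either co-treated library (0.0658 and 0.0992), and for co-treated against control without any library of those groups (0.123 to 0.349).

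**Figure D5:**
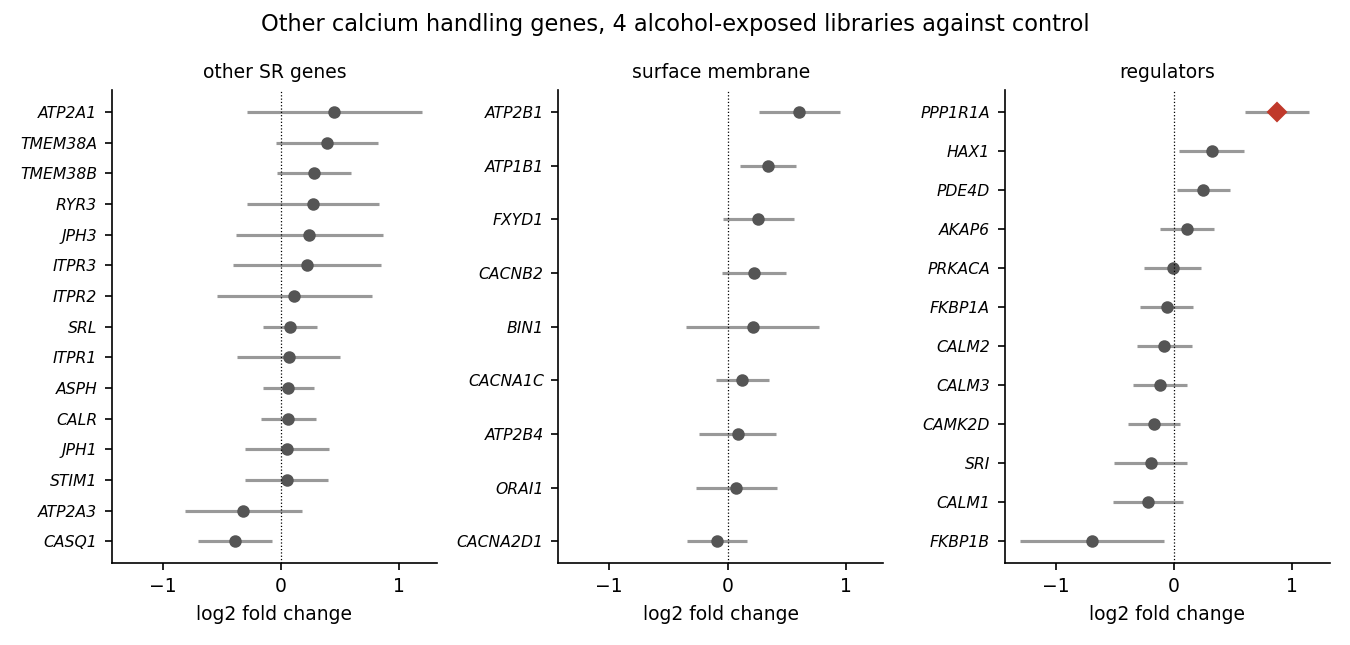
Fitted log2 fold change (points) and 95% interval (lines) from edgeR for the tested genes of 3 lists, in the 4 exposed libraries against control, with red diamonds for genes at an adjusted p under 0.05. PPP1R1A at 0.87 is the called gene.

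Of 15 tested genes of the reticulum and its release channels, 0 were called in the 4 contrasts, and their median log2 fold change was 0.11 for alcohol against control. CALR, the calcium-binding chaperone calreticulin, was at 297 and 326 FPKM in control, 313 and 365 FPKM in alcohol and 314 and 347 FPKM in co-treated libraries. ASPH, the locus of junctin and aspartate beta-hydroxylase, ranged from 107 to 119 FPKM over the 6 libraries, and SRL, the luminal protein sarcalumenin, from 43.7 to 53.0 FPKM. The groups overlapped for CALR, and the log2 fold changes of these 3 genes for alcohol against control were 0.08, 0.03 and 0.10.

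Of 9 tested genes of the surface membrane, 0 were called in the 4 contrasts. Their median log2 fold change was 0.23 for alcohol against control. In that contrast 2 of the 9 had an unadjusted edgeR p under 0.05, beside 11.0% of all genes tested. ATP1B1, a beta subunit of the sodium pump, stood at 131 and 130 FPKM in control, 150 and 177 FPKM in alcohol and 164 and 189 FPKM in co-treated libraries, with a log2 fold change of 0.34 ± 0.11 for all exposed libraries (edgeR adjusted p = 0.181). FXYD1, or phospholemman, which regulates the sodium pump, was at 111 and 87.3 FPKM in control, 129 and 111 FPKM in alcohol and 118 and 131 FPKM in co-treated libraries, with a log2 fold change of 0.26 ± 0.14 for all exposed libraries (edgeR adjusted p = 0.439). ATP2B4, a plasma membrane calcium pump, ranged from 100 to 140 FPKM with overlapping groups.

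Among 12 tested regulators PPP1R1A was called, and the median log2 fold change for alcohol against control was -0.079. CALM2 and CALM3, which encode calmodulin, ranged from 192 to 244 FPKM and from 160 to 196 FPKM over the 6 libraries. FKBP1A, a ryanodine receptor binding protein, ranged from 86.7 to 98.5 FPKM, with a log2 fold change of -0.03 for alcohol against control. None of these 3 genes passed the test in any contrast.

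The genes whose TMM-scaled log2 CPM followed RYR2, ATP2A2 and PLN most closely over the 6 libraries were sought among 10771 genes with a mean of at least 50 counts. For RYR2 they were KDM4C (Pearson r = 0.993), LUC7L3 (0.990) and COX7A2L (0.988). For ATP2A2 they were CCDC152 (0.993) and TANK (0.987). For PLN they were RSBN1 (0.998), MBNL1 (0.991) and MPP1 (0.988). With 6 libraries such values were common, since 280, 191 and 121 genes exceeded an r of 0.9 with RYR2, ATP2A2 and PLN, and the values are given as a description.

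The 10 genes lie on 7 chromosomes of GRCh38.p14 by RefSeq. The closest pair is PLN (chr6:118548296-118561716) and TRDN (chr6:123216339-123636950), 4.65 Mb apart, followed by RYR1 and HRC on chromosome 19, 10.6 Mb apart, and RYR2 and CASQ2 on chromosome 1, 121 Mb apart. RYR2 (chr1:237042184-237833988) and CASQ2 (chr1:115700021-115768714) were on opposite sides of control in the exposed libraries. Of the 7 genes with a cellular component entry in the deposited annotation, RYR2, RYR1, CASQ2 and JPH2 carried the term sarcoplasmic reticulum, which 9 of 13803 annotated genes carried. The terms T-tubule and Z disc matched 0 of the 13803 genes, so a term missing from this annotation says little about a gene.

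Promoter sequence was available from RefSeq for 9 of the 10 genes, all but SLN. Over the 250 bases before the start site, the GC content ran from 34.8% in PLN to 75.2% in RYR2. Both strands were searched for letters that cardiac transcription factors recognise. The letters AGATAA, a zinc finger factor motif, were found in PLN and SLC8A1 and in 9.17% of 35116 promoters. The E-box CAGCTG was found in RYR2 and HRC and in 4911 of the 35116 promoters. RYR2 and HRC also held CATTCC, the motif of TEAD factors, which was present in 11.9% of promoters. The MEF2 and CArG motifs matched none of the 9, beside 0.515% and 1.16% of all promoters. A match describes letters in this window and not a bound site. The windows of PLN, the most abundant of the genes, and of CASQ2, the gene with the smallest edgeR p against control, are printed 5′ to 3′ in the direction of transcription, in lower case with motif matches in capitals. PLN is at chr6:118548046-118548295 (+), where the capitals mark AGATAA on the opposite strand, and CASQ2 is at chr1:115768715-115768964 (-), which held none of these motifs.
PLN: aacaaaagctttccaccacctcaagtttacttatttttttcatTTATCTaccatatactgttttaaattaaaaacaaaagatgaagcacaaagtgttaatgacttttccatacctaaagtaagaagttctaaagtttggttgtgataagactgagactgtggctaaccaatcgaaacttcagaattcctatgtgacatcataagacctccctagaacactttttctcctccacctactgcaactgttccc
CASQ2: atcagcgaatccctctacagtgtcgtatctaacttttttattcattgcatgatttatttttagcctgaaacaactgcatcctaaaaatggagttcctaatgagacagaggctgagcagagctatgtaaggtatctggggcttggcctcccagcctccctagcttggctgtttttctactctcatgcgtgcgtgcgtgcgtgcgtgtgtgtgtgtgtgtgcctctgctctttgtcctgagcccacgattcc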

How the data were processed

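Total RNA of the 6 libraries was sequenced by Illumina protocols, per the labels. Per the submitters' processing notes the tools were HISAT2 2.0.4, Bowtie2 2.2.5 and RSEM 1.2.12 with build hg38. The authors deposited RSEM expected counts and FPKM per gene, and the deposited isoform-weighted transcript length in bases. FPKM was used for levels between genes. Expected counts, of which 33.9% were not whole, were rounded and tested in edgeR 4.0.16 (R 4.3.3) with TMM scaling, filterByExpr and a two-sided quasi-likelihood F test, fitted over the 6 libraries together, and p-values were adjusted by the Benjamini-Hochberg method over 14926 genes with a threshold of 0.05. Standard errors were derived from F (absolute log2 fold change over the root of F). DESeq2 1.42.0, limma 3.58.1 on log2(FPKM + 1) and log2(FPKM + 0.1), other scalings and filters, a replicate block and each library left out were alternatives. The fits were checked on simulated data. With no change simulated, edgeR called 5 genes for alcohol against control and 3 for exposed against control. With changes simulated, 18 and 16 unchanged genes were called in these contrasts. Of changes of 1 on the log2 scale, 68.8% and 78.1% were recovered. Ratios were compared by exact permutation tests. The exposed contrast was the mean of the alcohol and co-treated groups minus control. The members and gene lists were chosen with earlier results of these data known. Named beside the members were the listed genes called in any contrast, the 3 with the highest control FPKM in each list and the 3 most like RYR2, ATP2A2 and PLN, except that a few genes are not reported here. Coordinates and promoters were from RefSeq (GRCh38.p14) and coding sequences from GENCODE (GRCh38).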

Additional observations from a re-analysis of the deposited data

How the results depend on the processing

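The count of 0 members called held for every alternative run in co-treated against control. For all exposed libraries against control it was 1 (CASQ2) with at least 10 counts in every library (edgeR adjusted p = 0.0477) and 0 to 1 with single libraries left out, and by a log2 FPKM ratio beyond 1 it was 1 (RYR1) in the other 3 contrasts. The adjusted p of CASQ2 ran from 0.0902 to 0.719 for alcohol, 0.101 to 0.640 for co-treated and 0.0364 to 0.517 for exposed against control, and its sign held in all of these. With single libraries left out, the member median ran from 0.092 to 0.19 for alcohol against control, -0.058 to 0.11 for co-treated against alcohol, -0.030 to 0.19 for co-treated against control and 0.059 to 0.19 for exposed against control. RYR1 was not tested with at least 10 counts in every library.

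Pathway genes called for alcohol against control were 0 by limma with either pseudocount, 0 with no filter, 0 with the compared groups only and 0 to 1 with single libraries left out. For co-treated against control they were 0 by limma with either pseudocount, 0 with no filter and 0 to 1 with libraries left out, and for exposed against control 0 by limma with either pseudocount and 0 to 3 with libraries left out. All genes called, in the order DESeq2, limma with 1, limma with 0.1, no filter and the lowest and highest with single libraries left out, were 72, 0, 2, 2, 1 and 220 for alcohol against control, where totals only gave 22, at least 10 counts 26 and the compared groups 3. They were 128, 2, 3, 15, 2 and 184 for co-treated against control (158 with the compared groups only) and 158, 0, 5, 27, 6 and 407 for exposed against control (144 with at least 10 counts). For co-treated against alcohol DESeq2 called 5, limma with 1 called 1, no filter 1, at least 10 counts 0, the compared groups 4, and libraries left out 1 to 24. The cause of these shifts was not tested.

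The main fit did not pair the samples by replicate number. Deviations of same-numbered libraries correlated at 0.226 (control and alcohol), 0.020 (control and co-treated) and 0.107 (alcohol and co-treated). Whether same-numbered libraries shared a source was not tested. A fit with the replicate block called 1 member for exposed against control (CASQ2, edgeR adjusted p = 0.0379) and 1 pathway gene for each contrast against control. In all it called 48, 5, 136 and 256 genes for alcohol against control, co-treated against alcohol, co-treated against control and exposed against control. The main fit called 10, 2, 54 and 83 genes in the same order.

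The member median for co-treated against alcohol, close to 0 at -0.00063, ran from -0.012 to 0.015 under the alternatives that left out no library, and 7 of 15 alternatives kept its sign. Signs of single genes reversed with libraries left out, where the ranges were -0.24 to 0.040 (SLC8A1) and -0.43 to 0.12 (JPH2) for alcohol against control; for co-treated against alcohol -0.067 to 0.084 (HRC), -0.15 to 0.11 (PLN), -0.52 to 0.037 (JPH2), -0.16 to 0.043 (ATP2A2), -0.094 to 0.18 (SLC8A1), -0.24 to 0.15 (TRDN), -0.0012 to 0.24 (CASQ2), and -0.36 to 0.044 (PPP1R1A); and for co-treated against control -0.12 to 0.012 (SLC8A1), -0.67 to 1.04 (RYR1) and -0.10 to 0.29 (TRDN). With single libraries left out, the log2 change of the PLN to ATP2A2 ratio ran from -0.072 to 0.30 for alcohol against control, -0.15 to 0.19 for co-treated against alcohol and -0.048 to 0.31 for co-treated against control, and there that of SLN to ATP2A2 from -0.16 to 0.047 and that of RYR1 to RYR2 from -0.87 to 0.75. Depth limits SLN and RYR1, which had at most 40 counts in a library.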

Other observations

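Other calcium handling genes were singled out after their values were seen. ATP2B1, a plasma membrane calcium pump, was at 5.34 and 5.15 FPKM in control, 6.63 and 8.91 FPKM in alcohol and 7.37 and 9.85 FPKM in co-treated libraries. All 4 exposed libraries were above control, with a log2 fold change of 0.61 ± 0.16 for all exposed against control that did not pass the adjusted test (edgeR adjusted p = 0.102). FKBP1B, which encodes the FK506-binding protein that associates with the cardiac ryanodine receptor, was at 6.46 and 8.93 FPKM in control, 4.90 and 5.28 FPKM in alcohol and 4.51 and 5.00 FPKM in co-treated libraries. The FKBP1B values rest on 32 and 44 counts in control, 24 and 25 in alcohol and 21 and 25 in co-treated libraries. Every exposed library was below both control libraries, with a log2 fold change of -0.70 ± 0.28 for all exposed against control (edgeR adjusted p = 0.298). The genes whose log2 CPM followed CASQ2 most closely over the 6 libraries, again looked for after its values were known, were CCDC50 (Pearson r = 0.981), RBL1 (0.981) and CLIC1 (0.978).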
